A study of Mus musculus with 11 samples.

Results

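Pamr1 is 1 of the 14602 genes with counts in 11 RNA sequencing libraries of mouse RPE/choroid, the retinal pigment epithelium together with the vascular layer beneath it. It was selected by name because its level differed between the groups of these same libraries, so its level in laser treated and naïve control samples is described here with no test. All mice were C57BL/6J, entered the study at 9 months of age and were collected at 12 months. The 6 naïve control libraries are from age-matched mice that received no laser, and the 5 laser treated libraries are from mice whose eye had received the 2RT nanosecond laser 3 months before collection. The laser was applied as small spots to 1 eye, while each library holds the RPE/choroid of a whole eye cup with the neural retina removed, and fellow eyes were not analysed here. A SmartSeq step amplified the RNA before library preparation. The labels count mice per group but give no animal for each library, so p-values measure the spread between these libraries, which may in part be technical.

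Pamr1 encodes a secreted protein named as the peptidase domain containing protein associated with muscle regeneration. The protein carries a CUB domain, an EGF-like domain and sushi domains, which are modules for binding other extracellular proteins, followed by a domain with the fold of a trypsin-like serine protease. Its nearest relatives in this layout are the proteases that start the complement cascade, C1r, C1s and the MASPs, but the protease domain of Pamr1 is regarded as catalytically inactive. The gene was first described for its raised expression in regenerating skeletal muscle.

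On GRCm38, Pamr1 (ENSMUSG00000027188) lies on the plus strand of chromosome 2 from 102550012 to 102643041, a span of 93.0 kb. Its coding transcript, Pamr1-201, has 11 exons with 2864 bases in all, of which 2163 are coding with the stop codon counted. Exon 1 holds the start codon and exon 11 the end of the coding sequence and the 3′ UTR. Below are the coding part of exon 1, which carries the start codon in capitals, and exons 5, 7 and 10. These exons are shown because exon 1 and exon 7 had assembled fragments in laser treated libraries but in 0 of 6 naïve control libraries, while exons 5 and 10 had fragments in both groups. In exons 5, 7 and 10 the capitals mark the bases inside an assembled fragment in all 5 laser treated libraries. The letters are those of the GENCODE M21 transcript, 5′ to 3′, on the plus strand.
Exon 1, chr2:102550192-102550264: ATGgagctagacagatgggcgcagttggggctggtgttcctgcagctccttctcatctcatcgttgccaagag
Exon 5, chr2:102611562-102611779: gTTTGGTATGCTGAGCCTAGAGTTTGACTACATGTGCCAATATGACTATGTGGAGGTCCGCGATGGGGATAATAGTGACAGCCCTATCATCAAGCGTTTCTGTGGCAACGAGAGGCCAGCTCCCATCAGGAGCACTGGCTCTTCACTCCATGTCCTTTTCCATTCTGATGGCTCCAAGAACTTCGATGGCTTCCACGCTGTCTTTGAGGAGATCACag
Exon 7, chr2:102634328-102634540: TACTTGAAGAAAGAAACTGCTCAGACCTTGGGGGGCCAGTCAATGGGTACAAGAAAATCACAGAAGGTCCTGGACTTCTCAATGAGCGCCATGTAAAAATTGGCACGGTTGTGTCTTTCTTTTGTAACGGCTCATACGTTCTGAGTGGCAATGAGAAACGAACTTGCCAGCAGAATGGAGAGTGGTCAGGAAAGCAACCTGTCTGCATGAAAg
Exon 10, chr2:102640667-102640959: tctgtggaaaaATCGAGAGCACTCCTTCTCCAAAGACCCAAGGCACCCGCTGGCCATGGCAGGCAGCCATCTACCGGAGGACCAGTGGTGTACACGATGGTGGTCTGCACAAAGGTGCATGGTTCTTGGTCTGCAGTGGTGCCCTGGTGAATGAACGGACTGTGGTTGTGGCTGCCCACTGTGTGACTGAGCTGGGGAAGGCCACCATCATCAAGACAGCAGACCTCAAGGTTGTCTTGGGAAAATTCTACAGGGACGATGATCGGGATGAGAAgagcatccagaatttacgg

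Total counts ranged from 25700881 to 38755994 per library. Rgr, an opsin of the RPE, had 62290 ± 9691 CPM in the controls and 59020 ± 12270 CPM after laser, where CPM is the count scaled to library size after TMM normalization and ± is the SD over 6 and 5 libraries, here and for the other group means. All 12 genes of an RPE marker list were measured, and their summed level was 95190 to 132900 CPM in naïve control and 78930 to 128800 CPM in laser treated libraries. Rod photoreceptor RNA remained after removal of the retina, with 4574 to 24350 CPM summed over 11 rod genes. Naïve control library 4 and laser treated library 5 stood apart from their groups in several marker genes, and values without them are given for Pamr1. The first line of each transcript file carries the label R1 or R2, whose meaning the sources used here do not give, and group values are therefore also given within each label.

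Pamr1 had few reads in naïve control RPE/choroid and lay several-fold higher in laser treated samples. The naïve control libraries 1 to 6 held 230, 92, 73, 137, 129 and 110 counts of Pamr1, or 6.51, 3.73, 2.36, 4.12, 3.50 and 3.32 CPM. The laser treated libraries 1 to 5 held 1085, 325, 500, 842 and 1016 counts, or 35.1, 8.83, 14.3, 24.1 and 30.5 CPM. All 5 laser treated libraries exceeded all 6 controls, and the closest pair were naïve control library 1 and laser treated library 2, a ratio of 1.36. Among all genes, 330, or 2.26%, had no overlap in CPM between the groups, a property that the choice of Pamr1 made use of. The mean was 3.92 ± 1.40 CPM in the controls and 22.6 ± 11.0 CPM after laser, a ratio of means of 5.76. The log2 fold change fitted by edgeR was 2.52 with a standard error of 0.37. In this bulk tissue, more cells that express Pamr1 and more Pamr1 RNA per cell cannot be told apart.

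**Figure D1:**
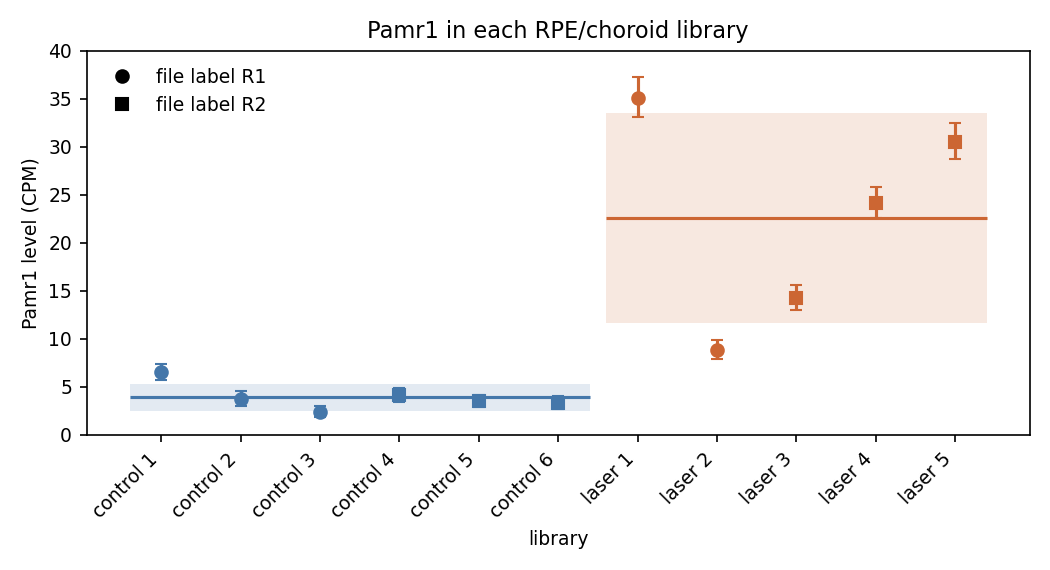
Pamr1 level in CPM (linear axis) in each of the 11 libraries. Points are libraries with exact 95% Poisson intervals of their counts, circles and squares are the file labels R1 and R2, and the lines and bands are group means ± SD, 3.92 ± 1.40 CPM in the 6 naïve control and 22.6 ± 11.0 CPM in the 5 laser treated libraries. Laser treated library 2, at 8.83 CPM, is the laser treated library nearest the controls.

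The spread of Pamr1 within the laser treated group was wide. Its highest library was 3.98 times its lowest, and the coefficient of variation was 48.6% against 35.6% in naïve control. In order of level, the libraries ran from naïve control 3 through 6, 5, 2, 4 and 1 to laser treated 2, 3, 4, 5 and 1. The exact 95% Poisson intervals of neighbouring libraries overlapped from naïve control 3, with 1.85 to 2.96 CPM, up to naïve control 4, with 3.46 to 4.87 CPM. From naïve control library 1, with 5.70 to 7.41 CPM, upwards they did not overlap. These intervals cover counting error only, and they can be too narrow even for that, since pre-amplified reads are not independent molecules. With laser treated library 1 left out, the log2 fold change was 2.31, the lowest of 11 such values, and without naïve control library 1 it was 2.74, the highest. Without naïve control library 4 and laser treated library 5 together it was 2.42.

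Within label R1, the 3 naïve control libraries had 2.36 to 6.51 CPM and the 2 laser treated libraries 8.83 and 35.1 CPM, a log2 fold change of 2.41 (standard error 0.67). Within label R2, the 3 naïve control libraries had 3.32 to 4.12 CPM and the 3 laser treated libraries 14.3 to 30.5 CPM, a log2 fold change of 2.68 (standard error 0.38). The controls of label R2 were the tighter set, with a coefficient of variation of 11.5% against 50.4% in label R1.

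Across all genes there were 13 genes with a larger log2 fold change, and all 13 had a lower mean CPM than Pamr1. Of the 204 genes that were higher after laser without overlap between the groups, 173 had a higher mean CPM than Pamr1. These values describe the difference by which Pamr1 was chosen. Per kb of annotated exon, Pamr1 had 0.649 ± 0.231 CPM per kb (SD, n = 6) in naïve control and 3.73 ± 1.81 CPM per kb (SD, n = 5) in laser treated samples. The length used was 6046 bases, which includes retained-intron transcripts, where the coding transcript has 2864 bases. Per kb of the coding transcript these levels would be higher, so they can be too low beside other genes.

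The transcripts assembled from each library show which parts of the gene the reads came from. They are the same reads as the counts and are no independent evidence. Each assembled transcript in these files is a single-exon fragment, and the shortest without a match to a reference transcript had 200 bases, so the 5 exons of Pamr1 under 200 bases were too short for an unmatched fragment of their own. Over Pamr1 there were 45 fragments, 17 in naïve control and 28 in laser treated libraries. All 45 lay on the plus strand, the strand of Pamr1, and overlapped an exon of the coding transcript. A start within 1 base of an annotated exon start was found in 23 fragments and an end within 1 base of an exon end in 18.

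Exon 11 had a fragment in all 11 libraries. Its TPM, the abundance scaled for length and depth by StringTie, was 3.73, 1.61, 1.70, 2.13, 1.85 and 1.51 in the naïve control libraries 1 to 6 and 18.6, 4.45, 7.47, 14.6 and 15.6 in the laser treated libraries 1 to 5. The groups did not overlap in this last exon. Exons 5 and 9 each had a fragment in 3 of 6 naïve control and 5 of 5 laser treated libraries, and exon 10 in 4 of 6 and 5 of 5. Where they were assembled, the TPM of exon 5 was 1.20 to 1.35 in naïve control and 3.63 to 8.67 in laser treated libraries, that of exon 9 was 1.09 to 1.77 and 1.87 to 8.18, and that of exon 10 was 0.545 to 1.48 and 2.32 to 8.72.

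Exon 7, whose sequence is printed above, had no fragment in 6 naïve control libraries and fragments of 1.76 to 4.56 TPM in all 5 laser treated libraries. Exon 1, with the 5′ end of the gene, had fragments in laser treated libraries 1, 2 and 4 alone, of 1.98 to 3.77 TPM. An exon without a fragment is one in which coverage did not reach an assembly, which is not the same as 0 reads. The fragments of exon 7 in laser treated libraries 1 and 5 ran on into the intron behind it, and naïve control library 4 had a 799 base fragment from exon 6 that lay for 704 bases in intron. Retained-intron transcripts of Pamr1 are annotated in GENCODE M21.

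**Figure D2:**
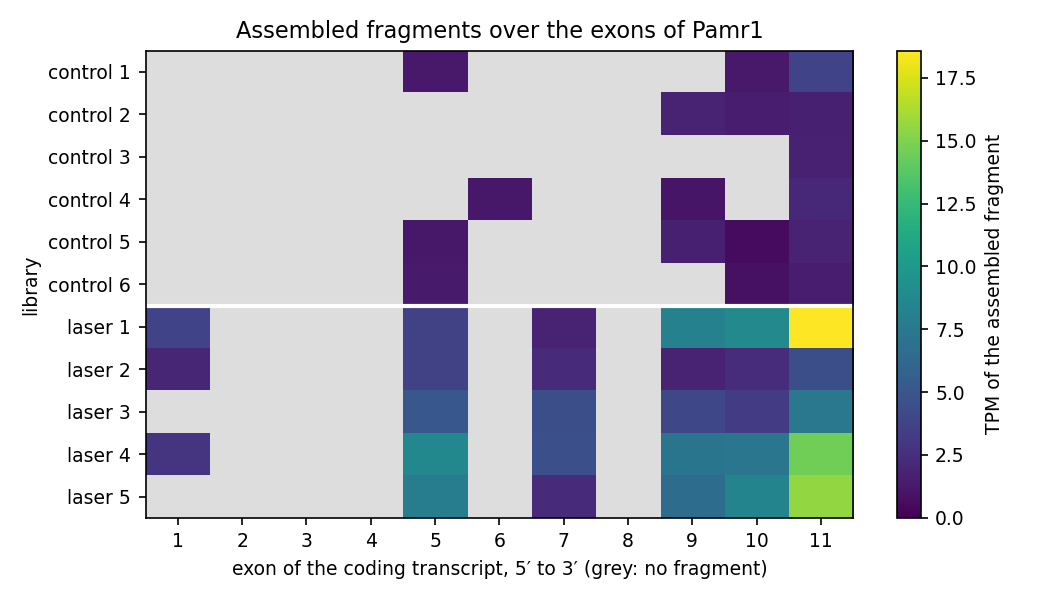
TPM of the assembled fragment (colour, linear scale from 0) over each of the 11 exons of Pamr1-201, 5′ to 3′, in each library, with grey where no fragment was assembled. Fragments are placed at the exon they overlap most. Exon 11 is filled in all 11 libraries, and exon 7 in the 5 laser treated libraries and in 0 of 6 naïve control libraries.

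Summed over its fragments, Pamr1 had 4.36 ± 1.56 TPM (SD, n = 6) in naïve control and 34.2 ± 13.01 TPM (SD, n = 5) in laser treated samples. Each TPM is already scaled for length, so this sum is not the TPM of the gene and rises with the number of fragments assembled. The number of assembled fragments was 1 to 4 per naïve control library and 5 or 6 per laser treated library. Over exon 11, which was assembled everywhere, the means were 2.09 ± 0.833 TPM (SD, n = 6) and 12.1 ± 5.91 TPM (SD, n = 5). Exon 11 held 65.0% to 100% of the fragment coverage of Pamr1 in naïve control and 62.6% to 67.5% in laser treated libraries, and the 100% is naïve control library 3, where it was the only fragment.

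The genes around Pamr1 were examined next. The annotation holds 15 other genes within 500 kb of Pamr1, of which 7 were measured, and 0 of the 15 overlap it. In the comparison of laser treated with naïve control samples by edgeR's quasi-likelihood test, 0 of 14602 genes had an adjusted p under 0.05, 2325 genes, or 15.9%, had an unadjusted p under 0.05, and DESeq2 gave 502 genes, or 3.44%, with an adjusted p under 0.05, with no adjusted p for 7090 genes. The share with an unadjusted p under 0.05 fell to 7.34% with a trend on GC content removed from each library, and it was 17.5% within label R1 and 6.29% within label R2, so shares of gene lists are given beside the share of all genes in the same fit. Of the 7 neighbours, 0 had an adjusted p under 0.05 and 1 an unadjusted p under 0.05, 1 was higher and 6 were lower, and the groups overlapped in all 7. Their median log2 fold change was -0.40, where that of all genes was -0.02.

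Slc1a2, a glutamate transporter of astrocytes that starts 15.6 kb after the end of Pamr1 on the same strand, had 43.9 ± 25.8 CPM in the controls and 28.0 ± 11.5 CPM after laser (log2 fold change -0.65 ± 0.40 SE, edgeR adjusted p = 0.467). Fjx1, the mouse homolog of four-jointed, which lies 97.5 kb before Pamr1, was near the lower limit of detection with 0.631 ± 0.610 and 1.85 ± 1.29 CPM (edgeR adjusted p = 0.576). For Trim44, a ubiquitin pathway gene, the log2 fold change was -0.40 ± 0.25 SE, and for Cd44, the hyaluronan receptor, -0.78 ± 0.80 SE. Ldlrad3, a lipoprotein receptor family gene, and Pdhx, a subunit of pyruvate dehydrogenase, had log2 fold changes of -0.35 and -0.03. Apip, an enzyme of methionine salvage 431 kb away, was the neighbour with the unadjusted p under 0.05, which 0 of the 7 had with the GC trend removed, with 66.5 ± 11.5 and 48.3 ± 14.5 CPM (log2 fold change -0.46, edgeR adjusted p = 0.306). It no longer passed with naïve control library 1, 2 or 3 or laser treated library 2, 3 or 4 left out.

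**Figure D3:**
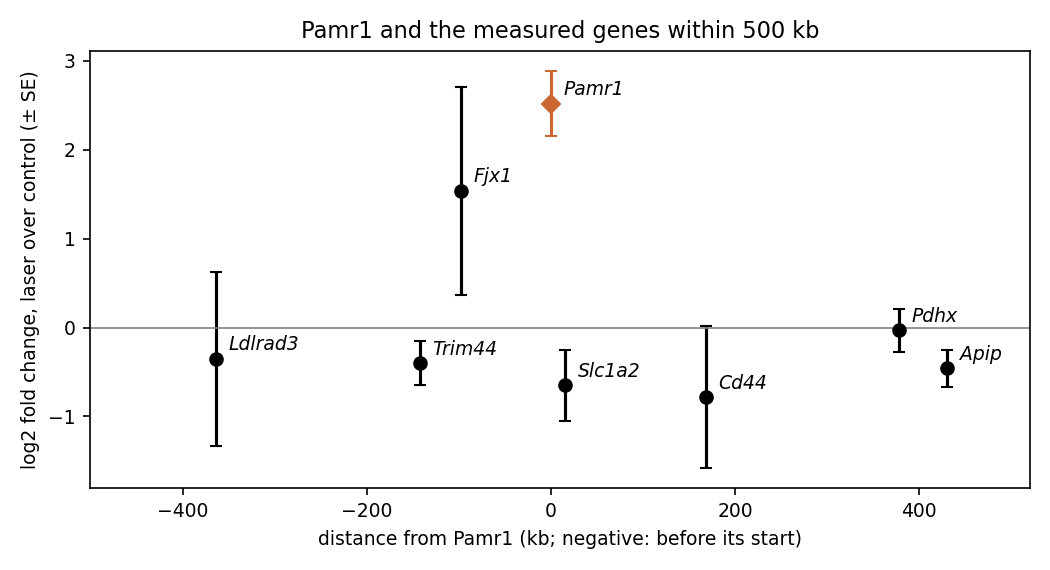
Log2 fold change of laser treated over naïve control samples, with its standard error, for Pamr1 (diamond) and the 7 measured genes within 500 kb, by distance in kb from the nearest end of Pamr1. Pamr1 is at 2.52 and Slc1a2, the nearest neighbour, at -0.65.

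Genes of proteins that share a fold with Pamr1 were taken as its family in the wider sense, in 4 lists with 52 measured genes of 90. Of these, 0 had an adjusted p under 0.05, and 9, or 17.3%, had an unadjusted p under 0.05, against 15.9% of all genes. With the GC trend removed these shares were 13.5% and 7.34%, with 7 of the 52 genes higher and 0 lower, and within label R2 they were 15.4% and 6.29%. In 8 of the 9 the level was higher in laser treated samples and in 1 it was lower, where 8.24% of all genes were higher and 7.68% lower at this threshold. The median log2 fold change of the 52 was 0.11.

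The nearest relatives, C1ra and C1s, which start the classical complement pathway, were both measured. C1ra had 4.29 ± 2.05 CPM in the controls and 7.52 ± 3.05 CPM after laser (log2 fold change 0.81 ± 0.42 SE, edgeR adjusted p = 0.374). C1s had 7.43 ± 5.83 and 6.70 ± 3.62 CPM (log2 fold change -0.15, edgeR adjusted p = 0.935). Both overlapped between the groups. Per kb of exon, averaged over all libraries, C1ra was at 1.93 and C1s at 2.27 CPM per kb. The group means of Pamr1 were 0.649 in naïve control and 3.73 in laser treated samples, on a length that includes retained introns. The order of the genes in naïve control cannot be read from these values. C1rb, C1s2, Masp1 and Masp2 were not analysed here.

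Of 24 other CUB domain genes, 3, or 12.5% against 15.9% of all genes, had an unadjusted p under 0.05, all higher after laser, and 0 an adjusted p under 0.05. With the GC trend removed there was 1. Bmp1, the protease that trims procollagen, had 8.59 ± 4.01 and 16.3 ± 3.17 CPM (log2 fold change 0.92, edgeR adjusted p = 0.214). Pcolce, its enhancer protein and the gene of highest CPM in this list, had 457.3 ± 78.5 and 614.1 ± 77.1 CPM (log2 fold change 0.43, edgeR adjusted p = 0.185). The log2 fold change of Lrp3, a lipoprotein receptor family gene, was 0.57 (edgeR adjusted p = 0.223).

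Of 17 other sushi domain genes, 2, or 11.8% against 15.9% of all genes, had an unadjusted p under 0.05, 1 in each direction, and 0 an adjusted p under 0.05. The gene with the higher level after laser was Bcan, a proteoglycan of neural matrix, at 43.3 ± 10.45 and 95.4 ± 77.4 CPM (log2 fold change 1.14, edgeR adjusted p = 0.201). Library 3 alone reached 230.8 CPM of Bcan after laser, and the remaining 4 lay at 38.7 to 77.8 CPM.

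Of 9 other secreted proteases with the trypsin fold, 4, or 44.4% against 15.9% of all genes (8.24% higher), had an unadjusted p under 0.05, all higher after laser, and 0 an adjusted p under 0.05. There were also 4 with the GC trend removed and 4 within label R2. Htra3, a secreted protease of the matrix, had 6.99, 8.32, 3.10, 7.25, 5.31 and 6.83 CPM in the naïve control libraries 1 to 6 and 22.1, 13.4, 8.73, 19.5 and 14.1 CPM in the laser treated libraries 1 to 5. These groups did not overlap, and edgeR gave a log2 fold change of 1.31 ± 0.31 SE with an adjusted p of 0.172. Htra1, its paralog linked to macular degeneration in humans, had 34.3 ± 11.9 and 55.7 ± 12.4 CPM (log2 fold change 0.70, edgeR adjusted p = 0.189). Plat, the tissue plasminogen activator, had 15.2 ± 4.09 and 33.8 ± 16.6 CPM (log2 fold change 1.16, edgeR adjusted p = 0.177). Klk6, a protease of myelinating glia, was at 0 counts in 4 of 6 naïve control libraries and at up to 1.08 CPM in the others, and had 29.2, 0, 1.83, 7.28 and 11.7 CPM in the laser treated libraries 1 to 5 (edgeR adjusted p = 0.195). Prss23, the gene of highest CPM in the list, had 106.7 ± 25.8 and 107.7 ± 15.01 CPM. By DESeq2, Plat (adjusted p = 0.0322) and Bcan (adjusted p = 0.0360) were the 2 genes of the 4 lists with an adjusted p under 0.05, against 3.44% of all genes. DESeq2 gave no adjusted p for many genes of these lists, among them Htra3, Klk6, Bmp1, C1ra and C1s.

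**Figure D4:**
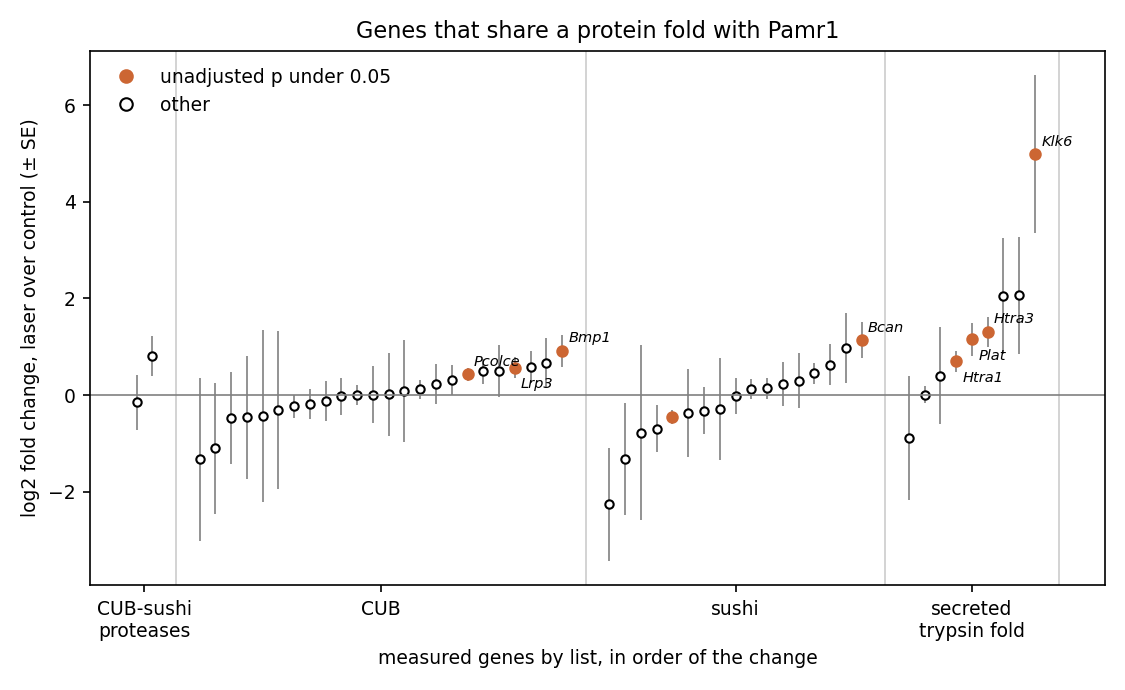
Log2 fold change of laser treated over naïve control samples, with its standard error, for the 52 measured genes in 4 lists that share a protein fold with Pamr1. Filled points have an unadjusted p under 0.05, which holds for 9 genes, 8 higher (named) and 1 lower, and no gene has an adjusted p under 0.05.

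Since Pamr1 is named for regenerating muscle, muscle genes were compared. Of 20 genes of skeletal muscle fibres, 1 had an unadjusted p under 0.05, Pygm, muscle glycogen phosphorylase and the gene of highest CPM in the list, with 113.3 ± 23.1 CPM in the controls and 163.9 ± 29.7 CPM after laser (log2 fold change 0.53, edgeR adjusted p = 0.179). DESeq2 gave Pygm an adjusted p of 0.0497. The summed level of the fibre genes was 181.4 to 924.6 CPM in naïve control and 249.1 to 1373 CPM in laser treated libraries. Of 21 genes of muscle stem cells and regeneration, 9 were measured, and 3 of these had an unadjusted p under 0.05. Itga7, a laminin receptor of muscle, and Spry1, a growth factor signalling inhibitor, had log2 fold changes of 0.72 and 0.57, and Met, the receptor of hepatocyte growth factor and the gene of highest CPM among these 9, of -0.35 (edgeR adjusted p = 0.268, 0.222 and 0.253). The myogenic factors Pax7, Myf5, Myod1 and Myog were not analysed here. With the group means removed, the summed level of the fibre genes had a Pearson correlation with Pamr1 of 0.17 and that of the regeneration genes of -0.05 over 11 libraries. Over both lists, 4 of 29 measured genes, or 13.8%, had an unadjusted p under 0.05, where it was 15.9% of all genes, and 1 had one with the GC trend removed or within label R2, and 2 without laser treated library 2 or 4 or naïve control library 2.

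Several glial genes, but not all, stood in the same order as Pamr1 across the laser treated libraries. Of 10 measured genes of Schwann cells and myelin, 5 had an unadjusted p under 0.05, all 5 higher in laser treated samples, against 8.24% of all genes, and 0 had an adjusted p under 0.05. With the GC trend removed 6 were higher, within label R1 5 and within label R2 1, against 17.5% and 6.29% of all genes called in either direction within these labels. The list summed to 439.0 to 777.3 CPM in naïve control and 650.0 to 1436 CPM in laser treated libraries. Mbp, a structural protein of myelin, had 53.0, 36.0, 24.3, 164.7, 42.5 and 33.6 CPM in the naïve control libraries 1 to 6 and 566.1, 30.1, 69.5, 268.5 and 440.1 CPM in the laser treated libraries 1 to 5 (log2 fold change 2.22 ± 0.74 SE, edgeR adjusted p = 0.208). The laser treated libraries stood in the same order in Mbp as in Pamr1, with library 1 highest and library 2 lowest, and Mobp and Klk6 gave this order too. Cnp, an enzyme of myelin-forming glia, had 15.9 ± 3.42 and 36.2 ± 15.8 CPM (log2 fold change 1.19, edgeR adjusted p = 0.172), Sox10, the transcription factor of these cells and of melanocytes, 132.1 ± 21.4 and 202.7 ± 43.5 CPM (log2 fold change 0.62, edgeR adjusted p = 0.172), and Mag, a myelin adhesion protein, 0.615 ± 0.702 and 6.20 ± 5.96 CPM, with no overlap between the groups (edgeR adjusted p = 0.216). DESeq2 gave an adjusted p of 0.00845 for Cnp and 0.0199 for Sox10.

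Not all markers of these cells shared this pattern. Pmp22, the gene of highest CPM in the list, had a log2 fold change of -0.05, and Prx, a protein of peripheral myelin, was at or under 4.51 CPM in every library. Because central glia express several of these genes, 10 markers of oligodendrocytes and astrocytes were added after these values had been seen, and 6 were measured. Mobp, a myelin protein of oligodendrocytes, was at 0 to 0.244 CPM in 5 naïve control libraries and at 5.32 CPM in library 4, and had 33.7, 0, 2.65, 16.1 and 20.4 CPM in the laser treated libraries 1 to 5. Gfap, the intermediate filament of astrocytes, had 31.6 to 113.3 CPM in naïve control and 267.4, 9.19, 201.0, 281.6 and 229.3 CPM in laser treated libraries 1 to 5. Aqp4, the water channel of astrocytes, had a log2 fold change of -0.36.

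The part of these glial genes in the level of Pamr1 was not tested. Laser treated library 2 held no counts of Mobp or Klk6 and less Gfap than any other library. It also had the highest Sox10 level of all 11 libraries, 269.5 CPM, and 2.99 CPM of Mag, where the controls had at most 1.51 CPM. Its Pamr1 level was 8.83 CPM, the lowest of the laser treated libraries and above all 6 naïve control libraries. Naïve control library 4 had more Mbp and Mobp than laser treated library 3, with 164.7 against 69.5 CPM of Mbp. Its Gfap level was lower, with 31.6 against 201.0 CPM. The Pamr1 levels of these libraries were 4.12 and 14.3 CPM. With the group means removed, the Pearson correlation of Pamr1 with Mbp was 0.86 (Spearman 0.86) over the 11 libraries, and 0.70 without the 2 libraries farthest from the median in Pamr1. For Mobp these were 0.74 (Spearman 0.75) and 0.43, for Cnp 0.67 (Spearman 0.55) and 0.32, and for Gfap 0.58 (Spearman 0.45) and -0.09. Mag, at 0.18 (Spearman 0.09), and Sox10, at -0.43 (Spearman -0.43), did not follow Pamr1 within the groups. The libraries share their depth and composition, so these values are descriptions.

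**Figure D5:**
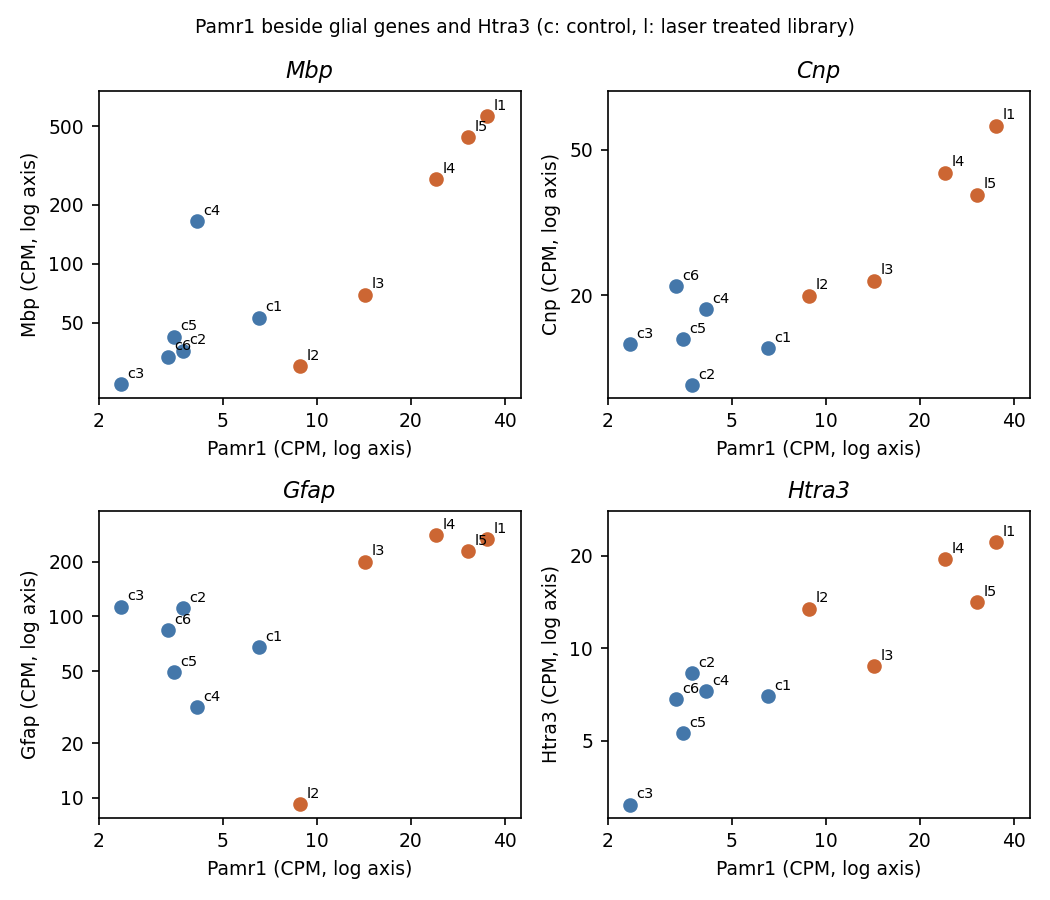
Level of Mbp, Cnp, Gfap and Htra3 against the level of Pamr1 in each library, in CPM on log axes, with naïve control (c) and laser treated (l) libraries numbered. In Mbp the laser treated libraries run from 30.1 CPM in library 2 to 566.1 CPM in library 1, in the order of their Pamr1 levels, and naïve control library 4 lies at 164.7 CPM.

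The other cell types that an RPE/choroid sample can hold were compared in the same way. With the Schwann cell list, 11 of 104 measured cell type genes, or 10.6%, had an unadjusted p under 0.05, against 15.9% of all genes, and 0 an adjusted p under 0.05. Within label R1 there were 34, or 32.7% against 17.5% of all genes, among them 11 of 11 rod genes and 6 of 8 epidermal and conjunctival genes, all 17 lower after laser, and within label R2 there were 10, or 9.62% against 6.29%, with 2 rod genes higher. The part of these genes in the level of Pamr1 within label R1 was not tested. Of 21 fibroblast genes, 1 had an unadjusted p under 0.05, Loxl1, a lysyl oxidase that cross-links elastin (log2 fold change 0.44, edgeR adjusted p = 0.197), while Fap, the gene of highest CPM, had 267.6 ± 57.0 and 248.5 ± 88.5 CPM. In the lists of endothelial, pericyte and smooth muscle, melanocyte, macrophage, and epidermal and conjunctival genes, with 11, 9, 7, 11 and 8 measured genes, none had an unadjusted p under 0.05. The log2 fold change of the gene of highest CPM in each was 0.53 for Plvap, 0.25 for Acta2, -0.09 for Dct, 0.23 for Lyz2 and -0.44 for Krt15. Among 11 rod genes Cnga1, a channel subunit of phototransduction, had an unadjusted p under 0.05 and was lower (log2 fold change -1.42, edgeR adjusted p = 0.235). Of 12 RPE genes, 3, or 25.0% against 15.9% of all genes, had an unadjusted p under 0.05, all higher. They were the retinol transporter Stra6, the amino acid transporter Slc6a20a and the keratin Krt18, with log2 fold changes of 0.53, 0.58 and 0.35 (edgeR adjusted p = 0.179, 0.202 and 0.290). DESeq2 gave Stra6 an adjusted p of 0.0397. The direction differed between the labels, with 5 RPE genes higher and 0 lower within label R1, and 0 higher and 2 lower within label R2. With the GC trend removed 1 was higher and 0 were lower. Hba-a1 and a beta globin listed as Beta-s had log2 fold changes of -0.86 and -1.13, and the latter was the 1 of 4 blood genes with an unadjusted p under 0.05 (edgeR adjusted p = 0.266). With the GC trend removed 3 of the 4 blood genes were lower at this threshold, and within label R1 or label R2 there were 0. With the group means removed, the Pearson correlation of Pamr1 with the summed level of these 9 lists lay between -0.30, for the RPE, and 0.49, for blood, and that with the Schwann cell list was 0.73 over the 11 libraries.

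The genes whose level followed that of Pamr1 most closely were sought among the 13701 other genes with a mean of at least 1 CPM, by the Pearson correlation of log2 CPM over the 11 libraries. With the libraries as they are, the 10 nearest were Lgi4, Htra3, Sparc, Cnp, Tagln2, Xrcc1, Arhgef19, Adck4, Surf2 and Csk, with correlations of 0.86 to 0.89 (Spearman 0.73 to 0.94). All 10 were higher in laser treated samples, as this choice by pattern entails. Lgi4, a secreted protein needed for peripheral myelination, had 2.45 to 5.83 CPM in naïve control and 10.3, 6.31, 8.22, 11.1 and 12.3 CPM in the laser treated libraries 1 to 5. Sparc, a collagen-binding matrix protein, had 195.3 to 291.5 CPM in naïve control and 478.8, 222.9, 339.6, 394.4 and 458.2 CPM in laser treated libraries 1 to 5, so that library 2 lay among the controls. Xrcc1, a scaffold of DNA strand break repair, was nearly level within the groups, with 19.4 to 25.5 CPM and 32.9 to 35.0 CPM. With the 2 libraries farthest from the median in Pamr1 left out, the correlations of the 10 were 0.75 to 0.88.

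With the group means removed, which leaves only the variation within the groups, other genes stood nearest. They were Rbm33, Tppp3, Hepacam, D9Ertd402e, Rps6ka5, Mboat2, Atp7a, 1110020A21Rik, Cd109 and Lrrc14b, with correlations of 0.87 to 0.92 (Spearman 0.75 to 0.93), and 0 of them were among the first 10. Of the 13701 genes, 4 reached a correlation of 0.9 or more in this version and 31 reached 0.8 or more. These are the extremes of many genes over 11 libraries, and how many would reach such values by chance was not tested. In all 10 named genes, laser treated library 2 was the lowest laser treated library, as in Pamr1, which this choice by pattern favours. Hepacam, an adhesion protein of astrocytes and oligodendrocytes, had 4.57, 0, 0.0856, 1.98 and 2.22 CPM in the laser treated libraries 1 to 5. Tppp3, a tubulin-binding protein, had 53.4, 9.35, 25.5, 28.3 and 50.5 CPM there. A positive log2 fold change was found in 3 of the 10, among them Hepacam and Tppp3, while Atp7a, the copper transporter, had 63.8 CPM in naïve control and 51.4 CPM in laser treated samples on average. Among the 5 genes that ran most against Pamr1 within the groups were Gm5506, Etv4, Adamtsl4 and Gm6345, with correlations of -0.88 to -0.86. Adamtsl4, a protein of fibrillin microfibrils, had 92.0 to 105.7 CPM in naïve control and 131.4, 231.9, 216.0, 161.0 and 145.2 CPM in the laser treated libraries 1 to 5, so it was above all controls in each laser treated library, and highest in libraries 2 and 3, where Pamr1 was lowest.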

How the data were processed

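RNA of RPE/choroid was sequenced in 6 naïve control and 5 laser treated samples. For 14602 genes the authors deposited raw counts, without normalization or pooling; the submitters' processing notes name Trim Galore, STAR 2.5.3a, featureCounts 1.5.3 and GRCm38. The further columns of the count table hold the authors' own comparison and were not used. The authors deposited for each library single-exon transcripts assembled by StringTie 1.3.3, with coverage, FPKM and TPM. Whether counting used strand is not given in the sources used here.

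Genes were compared with edgeR 4.0.16 in R 4.3.3 (TMM normalization, robust quasi-likelihood F test, Benjamini-Hochberg adjustment across the 14602 genes); filterByExpr took out 0 genes. Of the 14602 genes, 348 could not be placed on GENCODE M21. Exon length is the union of annotated exons, 6046 bases for Pamr1 with its retained-intron transcripts. Log2 CPM used a prior count of 2. The edgeR fit was tested on simulated data.

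Pamr1 and the gene lists were chosen with earlier results of these data known. The genes named are Pamr1, the measured genes within 500 kb, the CUB-sushi proteases, in each other list up to 4 genes with the smallest unadjusted p under 0.05 and the gene of highest CPM, and the 10 genes most like Pamr1 in each version and 5 opposite, of which a few are not reported here. Prx and the oligodendrocyte and astrocyte genes were named after their values were seen. Alternatives were DESeq2 1.42.0, upper quartile normalization, other filters, fits without robust estimation, limma 3.58.1 voom with sample weights, the replicate number as a block, the file label, removal of a GC trend (loess span 0.3), TPM with a pseudocount of 1 or 0.1 and each library left out, and, chosen after seeing the data, the GC trend and file label for the gene lists, and naïve control library 4 and laser treated library 5 left out together.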

Additional observations from a re-analysis of the deposited data

Results flagged for a closer look

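In groups of 4 to 10 libraries, a library was set apart when its gap to the nearest other library was a large part of the range of its group by Dixon's criterion. Of 138 groups of values, 17 held such a library, or 12.3%, where the criterion is set to give about 5% for independent, normally distributed values. The values here are CPM on a linear scale, and some groups share genes, as Dct and the summed melanocyte genes do. Whether 12.3% exceeds chance was therefore not tested. The level of Pamr1, its TPM and its share of coverage on exon 11 held none.

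Naïve control library 4 was set apart 8 times. It had 10.5 CPM of Ldlrad3, with 0.933 to 3.78 in its group, and 29.3 CPM of Cd44 against 1.34 to 6.20, both genes near Pamr1. It had 57.6 CPM of Htra1 against 24.2 to 33.4, 164.7 CPM of Mbp against 24.3 to 53.0, 5.32 CPM of Mobp against 0 to 0.244 and 4.93 CPM of Cldn11 against 0 to 1.25. Its Dct level was 1681 CPM against 683.0 to 968.2, and its summed melanocyte genes 2423 CPM against 1223 to 1651.

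Laser treated library 5 had 1737 CPM of Dct, where the others of its group had 562.5 to 843.7, and 2538 CPM of summed melanocyte genes against 1233 to 1527. It had 721.0 CPM of Krt15 against 2.17 to 171.2 and 1207 CPM of summed epidermal and conjunctival genes against 5.02 to 298.0. Its Hba-a1 level was 65.8 CPM against 16.3 to 26.6 and its summed blood genes 151.4 CPM against 36.5 to 67.8. Its Pamr1 level of 30.5 CPM lay below that of laser treated library 1.

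Bcan had 230.8 CPM in laser treated library 3 against 38.7 to 77.8, Spry1 185.3 CPM in laser treated library 2 against 109.9 to 127.8, and the beta globin listed as Beta-s 77.9 CPM in naïve control library 1 against 12.6 to 31.2.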

How the results depend on the processing

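The log2 fold change of Pamr1 stayed between 2.35 and 2.94 under 14 alternatives (3 of them within a label or with 2 libraries left out together, the latter chosen after seeing the data), and between 2.31 and 2.74 with each library left out; with the replicate number as a block it was 2.40. The value given was 2.52 with a standard error of 0.37, and no test was made of it. The highest value was that of TPM summed over fragments with a pseudocount of 0.1, a sum that rises with the number of fragments assembled. The number of genes with an unadjusted p under 0.05, 2325, became 1072 with the GC trend removed and 919 within label R2, and ranged from 1685 to 2778 with each library left out. The number with an adjusted p under 0.05, 0, became 502 with DESeq2, 1 with limma voom, 2 with a minimum of 10 counts in every library, and 0 to 4 with each library left out, the 4 without laser treated library 2. Of the neighbours, 1 had an unadjusted p under 0.05; this became 2 with the replicate block or within label R1, and 0 with upper quartile normalization, with the GC trend removed or within label R2, and ranged from 0 to 2 with each library left out. Of the muscle genes the 4 became 8 with the replicate block, 1 with the GC trend removed or within label R2, and 2 to 5 with each library left out, 2 without laser treated library 2 or 4 or naïve control library 2. The counts for the genes that share a fold with Pamr1 and for the cell type genes stayed within 1.5 times their value under the alternatives run, the block included, except that the latter, 11, became 34 within label R1, and ranged from 9 to 10 and from 10 to 16 with each library left out. With Spearman in place of Pearson, 4 of the 10 genes nearest Pamr1 with the libraries as they are were kept, and 5 of the separate 10 found with the group means removed. The list counts by GC trend and file label were added after seeing the data. By TPM in place of coverage times length, which drops the length of exon 11, its share was 52.8% in naïve control and 34.0% in laser treated samples. Where no cause is named, the cause was not tested. The sources used here do not say whether same-numbered libraries belong together, and the correlation of their deviations was -0.01 to 0.28.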
